A study of Mus musculus with 3 samples.

Results

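The peaks described here are the places inside introns at which Ad4BP/SF-1 was called on chromatin of mouse Leydig cells. A peak was taken as intronic when its centre lay more than 1 kb from every start of a protein-coding transcript, inside the body of a protein-coding gene and in no exon of a protein-coding transcript, by GENCODE M21 on the mm10 genome. By this rule 2891 of the 5721 peaks of vehicle-treated cells and 2003 of the 4025 peaks of cAMP-treated cells were intronic. The lists were kept apart throughout.

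Leydig cells were prepared from the testes of 9-week-old male ICR mice, with the cells of 10 animals pooled, and were cultured with vehicle or cAMP. The dose and duration of the cAMP treatment are not given in the sources used here. Chromatin was precipitated with an antibody against Ad4BP/SF-1, and 1 library was made for each condition, which leaves every difference between vehicle and cAMP without a replicate error. The deposited score of a peak, from MACS, is −log10 of the p-value multiplied by 10. Both lists begin at a score of 50, although the methods state a weaker p-value threshold, and whether weaker peaks were removed before deposit is not given in the sources used here. Read numbers are not in the lists, so sequencing depth is unknown. The same score may stand for unlike enrichment in the 2 libraries, and a place without a listed peak may have been called below a score of 50 and may still have been bound. All overlaps, and all statements that a peak was in 1 list alone, refer to the peaks as listed. Intervals below are exact Clopper-Pearson intervals at the 95% level and cover counting error only.

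Ad4BP/SF-1 is the orphan nuclear receptor encoded by *Nr5a1*. It binds DNA as a monomer, through a core that nuclear receptors share and a few bases on its 5′ side, and it is known as a regulator of the genes for steroid hormone synthesis in the gonads and the adrenal cortex. Androgens of the testis are made by Leydig cells, and cAMP is the messenger through which luteinizing hormone stimulates them. Introns can hold enhancers, which act on the gene around them or on genes farther away.

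The consensus searched for was TCAAGGTC, CCAAGGTC, TCAAGGCC or CCAAGGCC on either strand. The sequences that follow surround the copy nearest to the centre of intronic peaks that scored high or that lie in genes of steroid, cholesterol and glucose metabolism, and they are shown because they carry the feature that most of the intronic peaks share. Each is read 5′ to 3′ on the strand of that copy, from the mm10 genome of RefSeq, with consensus copies in capitals.
*Adamts9*, chr6:92884649-92884716, minus strand: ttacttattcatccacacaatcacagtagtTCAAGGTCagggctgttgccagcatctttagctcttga
*Clptm1*, chr7:19634741-19634808, plus strand: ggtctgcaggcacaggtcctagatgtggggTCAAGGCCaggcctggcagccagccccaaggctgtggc
*Greb1*, chr12:16734201-16734268, plus strand: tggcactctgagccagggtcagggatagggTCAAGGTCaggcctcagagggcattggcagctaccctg
*Mllt10*, chr2:18066596-18066663, minus strand: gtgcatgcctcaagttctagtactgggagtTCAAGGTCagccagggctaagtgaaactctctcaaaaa
*Boc*, chr16:44494031-44494098, plus strand: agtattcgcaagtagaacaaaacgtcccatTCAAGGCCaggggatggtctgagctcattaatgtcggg
*Chd2*, chr7:73540594-73540661, plus strand: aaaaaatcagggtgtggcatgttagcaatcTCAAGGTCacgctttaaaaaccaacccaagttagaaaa
*Por*, chr5:135690427-135690494, plus strand: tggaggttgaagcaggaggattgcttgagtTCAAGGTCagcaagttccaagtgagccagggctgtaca
*Fdxr*, chr11:115272999-115273066, plus strand: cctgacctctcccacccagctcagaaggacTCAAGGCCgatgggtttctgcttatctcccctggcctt
*Fdx1*, chr9:51954739-51954806, plus strand: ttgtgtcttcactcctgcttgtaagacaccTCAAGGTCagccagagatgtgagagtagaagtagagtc
*Scap*, chr9:110349214-110349281, plus strand: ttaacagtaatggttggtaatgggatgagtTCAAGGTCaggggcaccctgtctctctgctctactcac
*Acly*, chr11:100513868-100513935, plus strand: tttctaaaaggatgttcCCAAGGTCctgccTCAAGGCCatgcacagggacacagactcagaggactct
*Mgarp*, chr3:51391719-51391786, minus strand: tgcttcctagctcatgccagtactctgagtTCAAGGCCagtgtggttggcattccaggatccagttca
*Ldha*, chr7:46854437-46854504, minus strand: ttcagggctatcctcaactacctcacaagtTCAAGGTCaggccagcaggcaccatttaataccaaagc

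Introns were the most frequent place of an Ad4BP/SF-1 peak. They held 50.5% (49.2% to 51.8%) of the vehicle peaks and 49.8% (48.2% to 51.3%) of the cAMP peaks, whereas the same rule called 35.1% of the sequenced bases of the genome intronic. The intronic sequence carried 3.11 vehicle peaks and 2.15 cAMP peaks per Mb, which is 1.44 and 1.42 times the density over the whole genome. Regions within 1 kb of a start were denser, with 9.51 and 5.42 peaks per Mb, and intergenic regions more than 50 kb from a start were sparser, with 0.707 and 0.615. Exonic sequence was as dense as introns, with 3.16 and 2.16 peaks per Mb, and intergenic sequence within 50 kb of a start held 2.44 and 1.70, so the density was not particular to introns. The scores of the intronic peaks had medians of 72.24 (quartiles 58.52 and 103.5) in the vehicle list and 69.34 (56.8 and 97.85) in the cAMP list, and maxima of 718.52 and 803.27. Their median widths were 510 and 475 bp. The widest intronic peak, in *Sfi1* of the cAMP list, spanned 7123 bp and had no overlap in the vehicle list, while the widest of the vehicle list, in *Eef2*, spanned 1470 bp. *Sfi1* encodes a centrosomal protein, and *Eef2* encodes the elongation factor that moves the ribosome along the mRNA.

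Within introns, the peaks lay nearer to transcript starts than the intronic sequence does. The density fell step by step, from 5.93 vehicle peaks per Mb of intronic sequence at 1 to 2 kb from the nearest start to 0.868 at more than 100 kb, and from 4.12 to 0.761 in the cAMP list. Copies of the consensus given above also became fewer between these bins, from 246 to 149 per Mb. The share of the copies that lay in a peak fell from 2.62% to 0.536% (vehicle) and from 1.91% to 0.382% (cAMP). The centres lay at a median of 14.1 kb (vehicle) and 14.5 kb (cAMP) from the nearest start. Within 5 kb lay 21.9% and 21.7% of the centres, where 3.57% (1 to 2 kb) and 8.93% (2 to 5 kb) of the intronic bases are. Beyond 50 kb lay 15.9% and 17.0%, where 15.5% (50 to 100 kb) and 21.2% (more than 100 kb) of the intronic bases are. For 17.0% (15.6% to 18.4%) of the vehicle and 16.7% (15.1% to 18.4%) of the cAMP intronic peaks, the nearest start belonged to a gene other than the host. The first intron of the principal transcript held 33.2% (31.5% to 35.0%) of the vehicle and 32.7% (30.6% to 34.8%) of the cAMP peaks, against 22.8% of the intronic bases. The part of nearness to a start in these shares was not tested. Some of the centres lay near starts that the rule did not use, with 2.80% and 2.35% within 1 kb of a start of a non-coding gene and 5.57% and 5.44% within 1 kb of the start of a transcript of another type of a protein-coding gene. On either side of the limit of 1 kb, the 40 vehicle peaks within 200 bp outside it had a median score of 73.19, and the 47 inside it, which were not taken, 69.33. In the cAMP list these were 26 peaks with a median of 83.905 and 28 with 68.725.

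**Figure D1:**
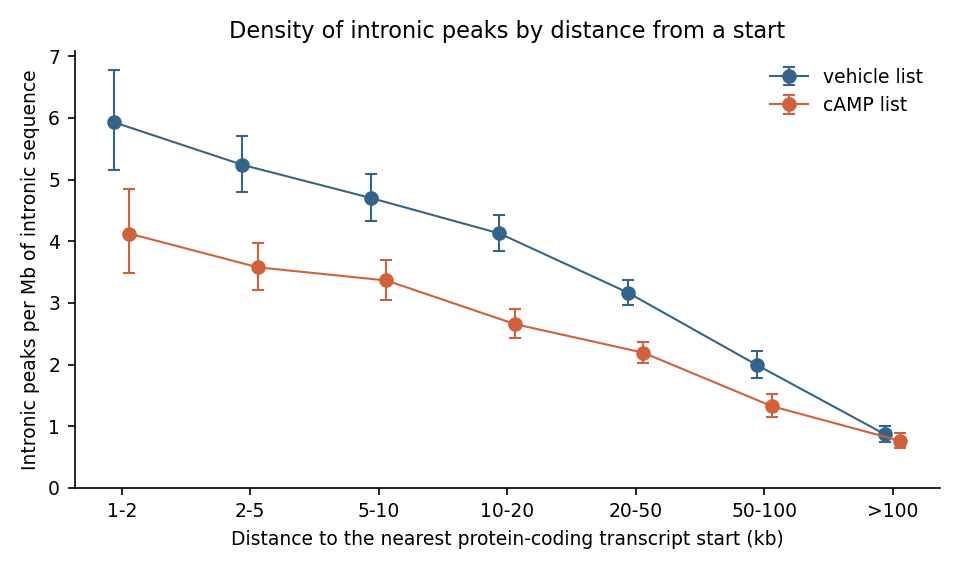
Intronic peaks per Mb of intronic sequence (vertical axis) by distance of the peak centre from the nearest protein-coding transcript start in kb (horizontal axis), for the vehicle list (blue) and the cAMP list (orange). Bars are exact 95% intervals of the share of peaks in each bin and cover counting error only. The density falls at every step, from 5.93 to 0.868 (vehicle) and from 4.12 to 0.761 (cAMP).

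The consensus was present in 2419 of the intronic vehicle peaks, or 83.7% (82.3% to 85%), and in 1650 of the intronic cAMP peaks, or 82.4% (80.6% to 84.0%). Over all peaks the shares were 80.4% and 77.1%. In the central 300 bp, 81.5% (80.0% to 82.9%) of the intronic vehicle peaks and 80.6% (78.8% to 82.3%) of the intronic cAMP peaks held it, compared with 74.5% (72.8% to 76.1%) and 69.4% (67.4% to 71.4%) of the peaks outside introns. Of the latter, peaks within 1 kb of a start held it in 78.3% and 83.4%, and exonic peaks in 71.8% and 66.9%. Intergenic peaks held it in 76.6% and 76.2% within 50 kb of a start, and in 68.4% and 53.6% beyond. The consensus was thus not particular to introns. When the whole intronic sequence of the genome was cut into 300 bp windows, 5.59% of them held a copy. The copy nearest to the centre lay at a median of 35 bp from it in both lists, and 92.2% and 93.2% of the nearest copies lay within 100 bp.

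**Figure D2:**
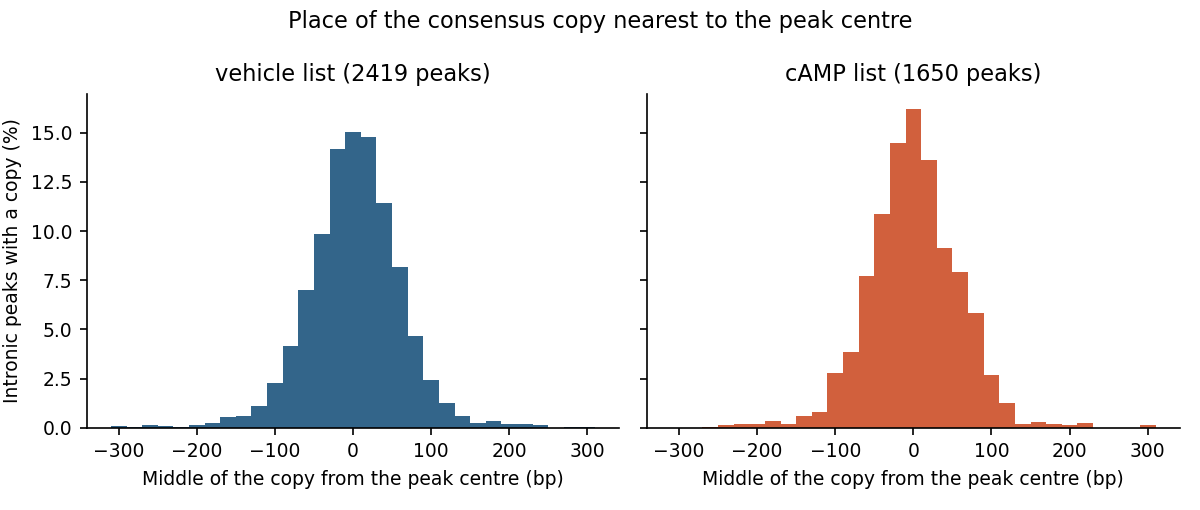
Distance in bp of the middle of the nearest consensus copy from the peak centre (horizontal axis) for the intronic peaks that hold a copy, as a percentage of those peaks in 20 bp bins (vertical axis), with the vehicle list on the left and the cAMP list on the right. Negative values lie on the side of lower coordinates, and the outermost bars hold all longer distances. Both distributions peak at the centre, with medians of the unsigned distance of 35 bp.

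The letters of the copies in peaks differed from those of all intronic copies. The introns hold 185581 copies of the consensus, of which 1.70% (1.64% to 1.76%) lay inside a vehicle peak and 1.16% (1.12% to 1.21%) inside a cAMP peak. TCAAGGTC was the form most often inside a peak, with 3.32% (3.15% to 3.50%) of its copies in a vehicle peak, followed by CCAAGGTC with 1.41% (1.29% to 1.54%) and TCAAGGCC with 1.34% (1.25% to 1.43%), whose intervals overlap, and by CCAAGGCC with 0.856% (0.768% to 0.952%). In the cAMP list the shares were 2.42% (2.27% to 2.57%) for TCAAGGTC, 0.933% (0.862% to 1.01%) for TCAAGGCC, 0.869% (0.774% to 0.973%) for CCAAGGTC and 0.499% (0.432% to 0.573%) for CCAAGGCC, with the middle forms in the other order and their intervals again overlapping. The base that follows separated the copies further. Among copies of TCAAGGTC, 5.34% (5.05% to 5.63%) of those followed by A lay in a vehicle peak, 3.42% (2.49% to 4.58%) of those followed by G, 0.666% (0.519% to 0.841%) of those followed by T and 0.459% (0.312% to 0.651%) of those followed by C. For cAMP peaks the shares by following base were 3.95%, 1.75%, 0.447% and 0.326%. An A followed 84.9% of the copies in vehicle peaks and 86.9% of those in cAMP peaks, but 54.0% of all intronic copies. The base before the copy was A in 5.72% and 5.65% of the copies in peaks, against 15.2% of all copies.

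Copies in sequence that the genome file masks as repeats made up 43.4% (41.6% to 45.1%) of the copies in vehicle peaks and 46.8% (44.7% to 49.0%) of those in cAMP peaks, compared with 36.4% (36.2% to 36.6%) of all intronic copies. The central 300 bp of the peaks themselves held less masked sequence than the introns, with means of 20.9% and 21.8% against 29.8% of all windows. Outside masked sequence, TCAAGGTC followed by A lay in a vehicle peak in 4.26% (3.92% to 4.62%) and in a cAMP peak in 2.97% (2.69% to 3.28%) of cases, below its shares over all introns. Only reads with a single position were kept by the authors, so peaks in recent repeats can be missing. The copies were also unevenly placed on the strands. Of the copies in vehicle peaks, 36.7% (35.0% to 38.4%) read in the direction of the host gene, and of those in cAMP peaks 36.4% (34.3% to 38.4%), while 45.2% (45.0% to 45.5%) of all intronic copies did. Outside masked sequence the shares were 40.3% (38% to 42.6%), 41.3% (38.4% to 44.3%) and 45.8% (45.5% to 46.1%).

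More than 1 copy was found in 611 of the intronic vehicle peaks (21.1%) and in 408 of the intronic cAMP peaks (20.4%), much as in promoter peaks (20.7% and 21.7%) and in intergenic peaks within 50 kb of a start (21.1% and 21.4%). Neighbouring copies in a peak lay on the same strand in 66.6% and 68.1% of cases. The most frequent arrangements were copies on 1 strand whose starts are 6 bases apart, so that the copies share 2 bases (52 vehicle and 41 cAMP pairs), and copies on 1 strand 29 bases apart (49 and 38 pairs). Of all 364 intronic pairs 6 bases apart, 13.5% (10.1% to 17.4%) lay in a vehicle peak and 11.3% (8.21% to 15%) in a cAMP peak. Of all 519 pairs 29 bases apart, 9.44% (7.07% to 12.3%) and 7.32% (5.23% to 9.91%) did. Copies with no other copy within 60 bases lay in a peak in 1.44% (1.38% to 1.49%) and 0.959% (0.915% to 1.01%) of cases. The spacings of 6 and 29 bases were picked because they were the most frequent inside these same peaks, which favours high shares. Shares for other spacings are not given here, so the comparison with lone copies is a description only. A run of several copies at 1 site also counts as more than 1 pair. Of the 519 pairs 29 bases apart, 404 were masked as repeats, compared with 69 of the 364 pairs 6 bases apart. The peak with the most copies, in intron 2 of *Capn2*, which encodes a calcium-dependent protease, held 9 copies in both lists and scored 412.63 and 374.36. The sequences below show this peak and examples of both arrangements, chosen after their values had been seen, with consensus copies in capitals and each pair read on the strand of its copies.
*Capn2*, 9 copies, chr1:182500954-182501253, plus strand: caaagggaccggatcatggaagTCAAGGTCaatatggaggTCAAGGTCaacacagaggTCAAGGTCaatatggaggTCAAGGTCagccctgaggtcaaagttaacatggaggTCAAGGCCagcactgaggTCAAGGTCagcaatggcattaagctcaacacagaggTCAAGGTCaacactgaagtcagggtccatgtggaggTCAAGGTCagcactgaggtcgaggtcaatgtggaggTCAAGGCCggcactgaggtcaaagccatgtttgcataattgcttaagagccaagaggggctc
*Ctdspl*, 6 bases apart, chr9:119032611-119032654, plus strand: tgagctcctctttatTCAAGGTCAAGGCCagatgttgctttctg
*Aars*, 6 bases apart, chr8:111044199-111044242, plus strand: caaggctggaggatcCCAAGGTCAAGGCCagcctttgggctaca
*Sparc*, 6 bases apart, chr11:55407296-55407339, plus strand: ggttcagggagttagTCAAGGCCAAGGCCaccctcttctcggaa
*Fez2*, 29 bases apart, chr17:78416075-78416141, plus strand: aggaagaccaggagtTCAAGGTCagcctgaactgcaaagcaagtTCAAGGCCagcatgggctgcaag
*Thsd4*, 29 bases apart, chr9:60181970-60182036, minus strand: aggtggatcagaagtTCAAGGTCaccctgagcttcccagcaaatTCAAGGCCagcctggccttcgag
*Ip6k3*, 29 bases apart, chr17:27145585-27145651, plus strand: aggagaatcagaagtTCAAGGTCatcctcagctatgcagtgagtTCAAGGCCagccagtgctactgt

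Other motifs were searched for on both strands of the central 300 bp. The AP-1 motif (TGAGTCA or its complement TGACTCA), bound by Fos and Jun proteins, was present in 10.7% (9.59% to 11.9%) of the intronic vehicle and 13.8% (12.3% to 15.4%) of the intronic cAMP peaks, and in 4.93% of all 300 bp windows of the introns. The E-box CAGCTG was in 21.2% (19.8% to 22.8%) and 19.2% (17.5% to 21%), against 11.3% of the windows. Peaks outside introns had much the same shares, 11.8% and 12.3% for AP-1 and 20.3% and 19.2% for CAGCTG. The C/EBP motif (TTGCGCAA or TTGCATCA) was in 0.934% (0.616% to 1.36%) and 2.05% (1.47% to 2.77%), against 0.900%, and in 1.48% (1.07% to 2.001%) and 1.73% (1.21% to 2.40%) of the peaks outside introns, where the lists were closer to each other. The TEAD motif (ACATTCC) was in 6.57% (5.70% to 7.54%) and 4.39% (3.54% to 5.39%), against 4.09%. The cAMP response element TGACGTCA, which CREB binds, was in 6 vehicle and 4 cAMP peaks, or 0.208% (0.0762% to 0.451%) and 0.200% (0.0544% to 0.511%), against 0.160%, and in 0.707% and 0.396% of the peaks outside introns. The NBRE AAAGGTCA, bound by NR4A receptors, was in 2.28% and 2.30%, against 1.65%, and in 2.79% and 2.62% of the peaks outside introns. GATA motifs (AGATAA or TGATAA) and the CCAAT box were less frequent in the peaks than in the windows, with 26.9% and 23.1% against 32.4% for GATA and 29.1% and 29% against 37.4% for CCAAT. The RUNX motif TGTGGTT was in 5.53% and 6.69%, against 7.32%, the E-box CACGTG in 3.56% and 3.54%, against 3.24%, and the GC box GGGCGG in 5.22% and 4.04%, against 2.70%. Outside introns CACGTG was in 5.69% and 4.35% of the peaks, and the GC box in 12.5% and 8.65%. The shorter core CAAGGTC or CAAGGCC, which lies inside each consensus copy, was in 84.4% and 82.6%, against 9.08%. The central windows of the peaks had a median G and C content of 48.0% (vehicle) and 47.3% (cAMP), whereas that of all windows was 42.3%, and its part in these shares was not tested.

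Intronic peaks without the consensus numbered 472 (vehicle) and 353 (cAMP). They scored lower, with medians of 64.36 against 73.94 for those with a copy in the vehicle list and 58.52 against 73.01 in the cAMP list. They also overlapped a peak of the other list less often, in 19.1% (15.6% to 22.9%) against 42.1% (40.1% to 44.1%) of vehicle peaks and in 26.1% (21.6% to 31.0%) against 61.3% (58.9% to 63.7%) of cAMP peaks. The highest score without a copy in the cAMP list was 337.86, in intron 11 of *Ccdc33*, where the vehicle peak scored 123.87. The nearest start, at 19.7 kb, was that of a transcript of *Cyp11a1* that begins inside the gene body. This *Ccdc33* peak of the cAMP list held the shorter core. In the vehicle list the highest was 231.32, in intron 7 of *Ap1b1*, which encodes a subunit of a clathrin adaptor. That peak had no overlap in the cAMP list and held the GATA motif.

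The consensus was more frequent among high scores. In the lowest quartile of the intronic peaks by score, 77.2% (73.9% to 80.2%) of the vehicle and 69.9% (65.6% to 73.9%) of the cAMP peaks held a copy, and in the highest quartile 89.9% (87.5% to 92.0%) and 95% (92.7% to 96.8%). Peaks with more than 1 copy went from 13.4% to 32.4% of the vehicle and from 10.6% to 32.1% of the cAMP peaks between these quartiles. Higher-scoring peaks were also wider, with median widths of 447 and 604 bp in the lowest and the highest quartile of the vehicle list and 434 and 536 bp in the cAMP list, and the part of width in these shares was not tested.

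**Figure D3:**
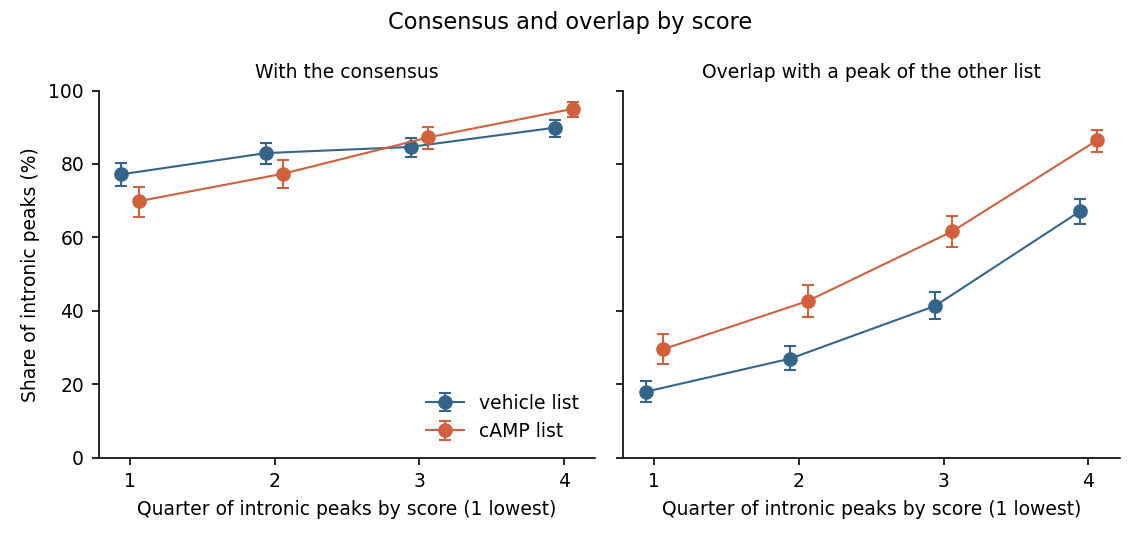
Share of intronic peaks (vertical axis, %) that hold the consensus (left) or overlap a peak of the other list (right), by quartile of the score within each list (horizontal axis, 1 is the lowest), for the vehicle list (blue) and the cAMP list (orange). Bars are exact 95% intervals and cover counting error only. Both shares rise from the lowest to the highest quartile, the overlap from 18% to 67.1% (vehicle) and from 29.5% to 86.5% (cAMP).

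Of the intronic vehicle peaks, 1109 or 38.4% (36.6% to 40.2%) had an overlap of 1 bp or more with a cAMP peak, close to the 37.9% over all vehicle peaks. Of the intronic cAMP peaks, 1104 or 55.1% (52.9% to 57.3%) overlapped a vehicle peak, compared with 53.8% over all cAMP peaks. The overlapping peaks were called at nearly the same place, with a median distance between the centres of 45 bp, and where the vehicle peak held a consensus copy the cAMP peak held the same copy in 1013 of 1019 cases. In 1098 pairs both peaks were intronic. Their scores had medians of 93.45 (vehicle) and 84.5 (cAMP), and the vehicle score was the higher in 635 pairs or 57.8%. Peaks without an overlap scored lower, with medians of 65.13 in the vehicle and 59.46 in the cAMP list. Of the 1782 vehicle intronic peaks without an overlap, 66.0% scored below 75, and of the 899 cAMP intronic peaks without one, 78.6% did. They held the consensus less often than the overlapping peaks, in 78.6% (76.6% to 80.4%) against 91.9% (90.1% to 93.4%) of the vehicle and 71.0% (67.9% to 73.9%) against 91.7% (89.9% to 93.2%) of the cAMP peaks. The C/EBP motif was in 3.11% (2.08% to 4.47%) of the cAMP intronic peaks without an overlap, in 1.18% (0.628% to 2.01%) of those with one and in 0.842% (0.472% to 1.38%) of the vehicle intronic peaks without one. The AP-1 motif was in 13.2% (11.1% to 15.6%), 14.2% (12.2% to 16.4%) and 9.15% (7.85% to 10.6%) of the same groups. With 1 library per condition, these differences have no replicate check.

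**Figure D4:**
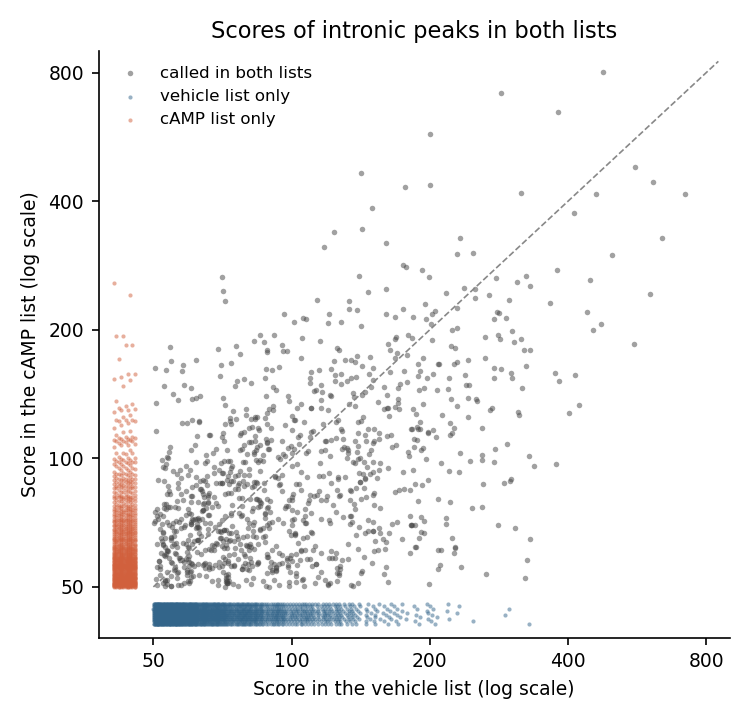
Scores of intronic peaks in the vehicle list (horizontal log axis) and the cAMP list (vertical log axis). Grey points are the 1098 pairs of overlapping intronic peaks, blue and orange points in the margins below 50 are intronic peaks called in the vehicle or the cAMP list only, and the broken line marks equal scores. Most peaks of 1 list only lie near the lower limit of 50, while the pairs reach 718.52 in the vehicle and 803.27 in the cAMP list.

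The highest-scoring intronic peaks were called in both lists. In the vehicle list the highest was in intron 11 of *Clptm1*, with a score of 718.52, where the cAMP peak scored 415.1. *Mllt10*, which encodes a partner of the histone methyltransferase DOT1L, followed with 639.9 in the vehicle and 327.73 in the cAMP list, in intron 2. *Chd2*, a gene for a chromatin remodeller, had a peak in intron 2 with scores of 613.43 and 443.39. In intron 1 of *Bicd2*, which encodes an adaptor of the dynein motor, the scores were 602.86 and 242.96. *Boc*, a gene for a hedgehog co-receptor, had a peak in intron 8 that scored 560.46 and 480.07. In each of these genes the vehicle score was the higher, and the cAMP peak overlapped the vehicle peak. In the next genes, which also lead the cAMP list, the cAMP score was the higher. The highest-scoring cAMP peak, with 803.27 against 475.8 in the vehicle list, was in intron 16 of *Adamts9*, which encodes a secreted metalloprotease. *Greb1*, an oestrogen-responsive gene, had a peak in intron 5 with 716.28 in the cAMP and 285.98 in the vehicle list. In intron 1 of *Fndc3b*, a gene for a protein with fibronectin domains, the scores were 647.4 and 379.52, and in intron 4 of *Appbp2* they were 573.64 and 200.13. *Dnajc7*, a co-chaperone gene, had a peak in intron 1 with 464.74 and 141.76. Since each peak was chosen for its high score in 1 list, these differences are a description only.

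Of the intronic peaks in the vehicle list alone, the highest was in intron 3 of *Rab31*, which encodes a small GTPase of vesicle traffic, with 328.78. *Arid1b*, a gene for a subunit of a SWI/SNF remodelling complex, had one in intron 5 with 297.91. *Rerg*, a gene for a Ras-like protein, had one in intron 2 with 248.53. *Dhcr7*, which encodes the enzyme of the last step of cholesterol synthesis, had one in intron 2 with 219.19 and 4 copies of the consensus in 1318 bp. Of those in the cAMP list alone, the highest was in intron 10 of *Acly*, with 256.91. *Acly* encodes ATP citrate lyase, which supplies cytosolic acetyl-CoA. *Fam189a1* followed with 241.02, in intron 3. *Rnf220*, a ubiquitin ligase gene, had one in intron 2 with 193.8, and *Kcnk2*, a potassium channel gene, one in intron 3 with 170.89. At *Mgarp*, which encodes a mitochondrial protein, the cAMP list held a peak in intron 2 with 147.76. Most of these peaks were chosen for a high score among those without an overlap, so their high rank follows from the choice. The peaks of *Acly* and *Mgarp*, listed for cAMP alone, scored above 98.2% and 91.1% of the cAMP list, which is a description only.

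An intronic peak was present in 2159 of the 21938 protein-coding genes in the vehicle list, or 9.84%, and in 1637, or 7.46%, in the cAMP list. Both lists had one in 1105 genes, which is 51.2% of the former and 67.5% of the latter. Most of the genes had 1 intronic peak, 1616 in the vehicle and 1313 in the cAMP list. Several intronic peaks were present in 543 genes in the vehicle list, which together held 46.0% of the intronic vehicle peaks, and in 324 genes in the cAMP list, which held 38%. Of these, 188 genes had several in both lists. A peak inside overlapping genes counted for each of them, which applied to 107 vehicle and 72 cAMP peaks, and genes of the protocadherin gamma cluster in particular were counted for the same 3 vehicle peaks, so there are fewer separate sites than these gene counts imply. The counts depended on the score, and were 206 and 90 among peaks that scored at least 75 and 81 and 33 among those that scored at least 100. The number of peaks went with gene length. Genes with several vehicle peaks had a median length of 115 kb, those with 1 peak 56.8 kb and those without 14.9 kb. In the fifth of the genes that are longest, from 58.1 kb upwards, 27.7% had an intronic vehicle peak and 22.3% an intronic cAMP peak, but per Mb of gene length these genes held fewer peaks (2.51 and 1.74) than the fifth next in length (4.09 and 2.77). Neighbouring peaks of a gene lay at a median of 20.7 kb (vehicle) and 25.3 kb (cAMP) from each other, and 17.8% and 13.4% of the neighbours lay within 5 kb.

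In the vehicle list the largest numbers belonged to 2 genes with very long annotated bodies. *Gm20388*, an annotated gene of 4435 kb on chromosome 8 that spans many other genes, held 46 vehicle and 20 cAMP peaks, and *Fgfr2*, annotated over 2961 kb, held 10 and 7, the latter as many as *Zmiz1*. *Gse1*, with 8 and 2 peaks, lies inside *Gm20388*. Among genes of more usual length, *Tns1*, which encodes the focal adhesion protein tensin 1, held 9 vehicle peaks with scores from 50.08 to 247.47 and 3 cAMP peaks, all 3 at places of a vehicle peak. Its highest vehicle peak, in intron 4, scored 76.4 in the cAMP list, and the next, also in intron 4, scored 167.71 and 171.83. *Hspg2*, which encodes perlecan, a proteoglycan of basement membranes, held 8 and 3 peaks, of which 6 vehicle peaks lay in intron 1 and the highest, with 381.83 and 152.03, in intron 33. *Ksr1*, which encodes a scaffold of the MAP kinase pathway, held 8 and 2. Its cAMP peaks scored 169.71 and 99.02, and the vehicle peaks at the same places 130.54 and 83.67.

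*Tgfbr3*, which encodes betaglycan, a co-receptor of TGF-beta and inhibin, held 7 vehicle and 4 cAMP peaks. One of the cAMP peaks, in intron 3 with a score of 134.22, had no overlap in the vehicle list. *Sh3bp5*, a gene for a mitochondrial scaffold of the kinase JNK, held 6 and 5 peaks in 76.2 kb, the highest density of the genes in the plot of several intronic peaks in the vehicle list, with 7.87 per 100 kb. In its intron 3, there were vehicle peaks of 401.72 and 364.96, and the cAMP peaks at these places scored 128.01, 231.28 and 92.98. *Zmiz1*, a gene for a transcriptional coregulator of the PIAS family, held 5 and 7, and its highest peaks, in introns 6 and 2, scored 556.1 and 413.95 in the vehicle list and 184.75 and 156.63 in the cAMP list. *Rbm47*, which encodes an RNA-binding protein, held 6 in each list, and 4 of the vehicle peaks overlapped a cAMP peak. *Lpgat1*, which encodes an acyltransferase of phospholipid synthesis, was among the genes with more peaks in the cAMP list, with 2 and 6. Its highest cAMP peak, in intron 6, scored 160.3 and the vehicle peak there 57.82.

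**Figure D5:**
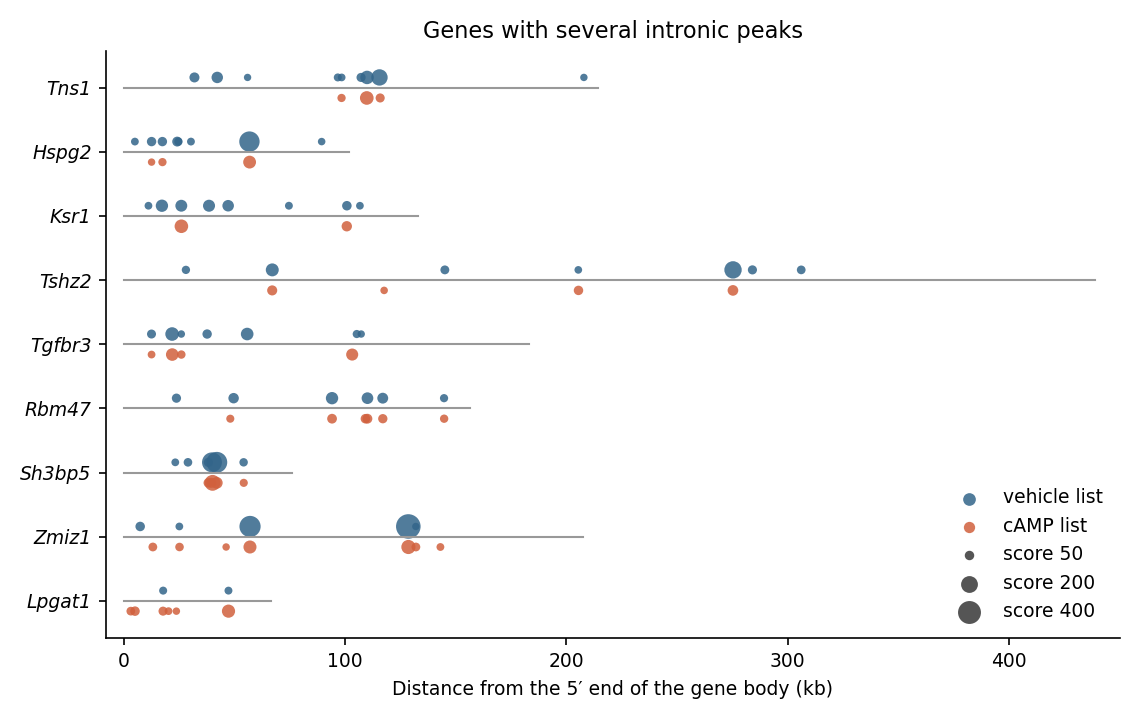
Intronic peaks along 9 of the genes with the most intronic peaks, with the distance from the 5′ end of the gene body in kb on the horizontal axis and 1 line per gene, drawn to the length of the gene. Blue points above the line are vehicle peaks and orange points below it cAMP peaks, and the area of a point is proportional to the score. *Tns1*, *Hspg2* and *Ksr1* hold 9, 8 and 8 vehicle peaks against 3, 3 and 2 cAMP peaks, while *Lpgat1* holds 2 against 6.

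Among 12 genes of steroid hormone synthesis, 3 (vehicle) and 5 (cAMP) had an intronic peak, or 25% and 41.7%, beside 9.84% and 7.46% of all protein-coding genes. The genes of the list have a median length of 15.4 kb, near the 17.4 kb of all. *Por*, the reductase that passes electrons to the microsomal P450 enzymes, had a peak in intron 1 in both lists, with scores of 180.46 and 101.52. It also had one upstream of its principal start in the vehicle list alone (74.13) and one in intron 2 in the cAMP list alone (65.62). *Fdxr*, the reductase of the mitochondrial electron chain of side-chain cleavage, had one in intron 2 in both, with 95.08 and 91.36. *Fdx1*, the ferredoxin that *Fdxr* reduces, had one in intron 2 in the cAMP list alone, with 99.52. *Cyp11a1*, the side-chain cleavage enzyme, had intronic peaks of a longer transcript at different places in the lists, with centres upstream of the start of its principal transcript, where the vehicle peak scored 65.55 and the cAMP peak 87.11. *Hsd17b3*, the testicular enzyme that forms testosterone, had one in intron 6 in the cAMP list with 52.18, and the overlapping vehicle peak, with 94.43, was centred in an exon. *Por* and *Fdxr* were thus the genes of the list with an intronic peak at the same place in both conditions.

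Of 20 genes of cholesterol synthesis, 2 had an intronic peak in each list, or 10.0%, near the 9.84% and 7.46% of all protein-coding genes. *Fdft1*, squalene synthase, had them in introns 9 and 3 in both lists, with vehicle scores of 147.78 and 144.52 and cAMP scores of 102.18 and 66.83. The other genes were *Dhcr7* in the vehicle list and *Mvd*, which encodes mevalonate diphosphate decarboxylase, in the cAMP list, in intron 7 with 65 and no copy of the consensus. Of 16 genes of cholesterol supply and storage, 4 had an intronic peak in each list, or 25%, above those shares of all genes, but their median length is 31.7 kb against 17.4 kb. *Scap*, the sterol sensor that escorts SREBP, had 3 vehicle peaks with scores of 74.78, 189.64 and 96.58 and 2 cAMP peaks at the latter places with 144.54 and 119.41. *Scarb1*, the receptor for high-density lipoprotein, had 4 vehicle peaks between 56.65 and 80.06 and 2 cAMP peaks of 72.14 and 68.93. *Lipa*, the lysosomal acid lipase, had 1 in the vehicle list alone, with 56.96. *Soat1*, which esterifies cholesterol for storage, and *Npc1*, which exports it from lysosomes, had 1 each in the cAMP list alone, with 96.75 and 53.58. Of 16 glycolytic genes, with a median length of 16.6 kb, 3 (vehicle) and 4 (cAMP) had an intronic peak, or 18.75% and 25%. *Ldha*, lactate dehydrogenase A, had one in its last intron in both, with 120.95 and 140.56. *Hk1*, a hexokinase, had 3 vehicle peaks from 66.12 to 74.32 and 1 cAMP peak of 96.21.

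Genes of cAMP signalling numbered 37, of which 11 (vehicle) and 8 (cAMP) had an intronic peak, or 29.7% and 21.6%, against 9.84% and 7.46% of all protein-coding genes. Their median length of 83.4 kb is well above the 17.4 kb of all genes. *Pde10a*, a phosphodiesterase that degrades cyclic nucleotides, had a peak in intron 1 that scored 70.61 in the vehicle and 266.21 in the cAMP list, while its peak farther upstream scored 134.27 and 84.23. *Adcy7*, an adenylyl cyclase, had one in intron 12 with 182.68 and 116.98. *Akap1*, which anchors protein kinase A at mitochondria, had peaks in introns 1 and 2 in both lists, with vehicle scores of 110.05 and 65.36 and cAMP scores of 159.53 and 91.13. *Prkaca*, the catalytic subunit of protein kinase A, had one in intron 1 in the vehicle list alone, with 112.68 and no consensus copy. Of 48 nuclear receptor genes, 9 (18.8%) and 8 (16.7%) had an intronic peak, and their median length, 48.2 kb, is also above that of all genes. *Thra*, a thyroid hormone receptor, had one in intron 2 with 167.71 and 83.36. *Rora*, an orphan receptor, had 4 vehicle peaks from 54.35 to 136.58 and 2 cAMP peaks of 60.85 and 138.88. *Esrrg*, an oestrogen-related receptor whose binding sequence resembles that of Ad4BP/SF-1, had 2 vehicle and 4 cAMP peaks, of which the highest in the cAMP list, 184.21, had no overlap and the highest in the vehicle list, 194.66, scored 71.23 in the cAMP list. Of 19 transcription factor genes of the gonad, with a median length of 13.9 kb, 3 had an intronic peak in each list, or 15.8%. *Zfpm2*, a cofactor of GATA factors, had one in intron 3 with 74.01 and 69.61.

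Peak lists give no expression levels, so the labelled cell type could not be checked from them, and only peaks at marker genes can be counted. With 9.84% and 7.46% of all protein-coding genes holding an intronic peak, lists this short would hold few or none at the background share, so the counts do not tell cell types apart. Of 6 Leydig cell markers, *Cyp11a1* alone had an intronic peak. None of 9 Sertoli cell, 6 macrophage or 5 peritubular myoid markers had one in either list. Among 8 germ cell markers, *Zbtb16* had one in both lists (134.38 and 169.81) and *Stra8* one in the cAMP list (58.07), and among 4 endothelial markers *Pecam1* had 2 in the cAMP list (77.32 and 51.14).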

How the data were processed

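Per the labels and methods, reads were aligned by the authors to mm10, using Bowtie (0.12.8 in the submitters' processing notes, 0.12.7 in the methods), and they discarded reads with several positions and ran MACS without its fragment model. Each deposited list has coordinates and the authors' score, with no read counts. Whether the input DNA served as control is not stated, and the input sample was not used here. From the lists, peaks were placed by their centre on GENCODE M21 (21938 protein-coding genes), and each peak counted for every gene around it but was named after the shortest host with the centre in an intron of its principal transcript. Sequences came from the mm10 assembly of RefSeq. Python 3.11.15, numpy 2.4.6, pandas 2.3.3, scipy 1.17.1 and matplotlib 3.10.9 were used, and the functions were tested on simulated data. Named genes are the hosts of the 10 highest-scoring intronic peaks of each list, of the 10 highest without an overlap, the 10 genes with most peaks, the listed genes with a peak, and *Acly*, *Mgarp*, *Fdft1* and *Dhcr7*. Some are not described one by one, and some are not reported here. *Eef2*, *Ccdc33*, *Capn2*, *Ctdspl*, *Aars*, *Sparc*, *Fez2*, *Thsd4*, *Ip6k3* and the protocadherin gamma cluster were chosen after their values were seen. The members and the gene and motif lists were chosen with earlier results of these data known. Coordinates count from 1. Alternatives were stricter scores, other distances, annotations, overlaps and consensus forms.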

Additional observations from a re-analysis of the deposited data

How the results depend on the processing

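With a minimum score of 75 in both lists, 87.6% of the vehicle and 92.7% of the cAMP intronic peaks held the consensus. Genes with several intronic peaks numbered 206 and 90. In the cAMP list 52.3% of peaks were intronic, and 35.8% of these lay in the first intron. Of the same intronic cAMP peaks, 60.4% overlapped a vehicle peak that also scored at least 75. With a minimum of 100 in both lists, the consensus shares were 89.6% and 94.9% and the genes 81 and 33. The cAMP overlap, with vehicle peaks of at least 100, was 61.1%, and the cAMP first-intron share was 38.7%. Overlaps with peaks below the minimum were not counted in these shares. The vehicle overlap share changed little at either minimum. The intronic share was 52.7% and 51.6% beyond 500 bp from a start, 39.5% and 39.0% beyond 5 kb, 46.8% and 46.2% with every transcript of protein-coding genes, and 46.2% and 46.3% with the whole peak clear of exons. With lists of equal length the overlap was 46.5% and 46.8%. The shorter core was in 86.7% and 84.8% of intronic peaks, the consensus followed by A or G in 79.5% and 79.4%, and the consensus in the central 300 bp in 81.5% and 80.6%. The first intron of any protein-coding transcript held 43.8% and 43.4%, against 33.6% of the intronic bases. No paired analysis was possible because each condition had 1 library, and for the same reason no library could be left out. The causes were not tested. Without read numbers, a difference in depth between the libraries and a difference between the conditions cannot be told apart.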
